A study of Mus musculus with 12 samples.

Results

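The secretases are the proteases that cut the amyloid precursor protein. β-Secretase (Bace1) sheds the outer part of the precursor, and γ-secretase then cuts the remaining stub within the membrane and releases amyloid β, the peptide of Alzheimer's disease plaques. α-Secretase (mainly Adam10, and also Adam17) cuts inside the amyloid β stretch, so that the peptide cannot form from that molecule. γ-Secretase is a complex of a presenilin, which holds the active site, with nicastrin (Ncstn), Aph1 and Pen-2, the product of Psenen.

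The 9 genes described here were Psen2, Aph1a, Aph1b, Ncstn, Psenen, Bace1, Bace2, Adam10 and Adam17. Every row of the long non-coding RNA count table whose transcript belongs to one of them in the GENCODE M21 annotation was taken. This gave 18 of 48033 rows, from 7 of the 9 genes, and Aph1b and Bace2 had no row. The annotation labels 12 of the 18 rows as retained introns and 6 as processed transcripts, and 0 as protein-coding. The values are therefore counts of rows labelled as non-coding transcripts of the secretase genes. The 27 coding transcripts annotated for the 9 genes have no row of their own, although their reads can fall on the non-coding rows, as given below.

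Libraries came from the hippocampus and the cerebral cortex of wild-type (WT) and 5 × FAD mice aged 7 months, all on the C57BL/6J background, with 3 libraries in each of the 4 groups. The WT mice were age-matched non-transgenic animals. The 5 × FAD mice carry human transgenes for the amyloid precursor protein with the Swedish, Florida and London mutations and for presenilin 1 with a further pair of familial mutations. In this strain neuronal Thy1 promoter elements drive the transgenes, so the model adds mutant protein to the mouse's own secretases. Both regions were taken from each of the 6 mice, so the 12 libraries are not 12 animals.

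Library totals ran from 3517967 to 5014389 counts, and the secretase rows together took 144.8 to 225.9 CPM, counts scaled to a common library size. Zbtb20, a hippocampal marker, was higher in hippocampus than in cortex (log2 difference 1.91, SE 0.16, in WT and 1.33, SE 0.18, in 5 × FAD; adjusted p = 0.00423 and 0.0497, edgeR). Mef2c, a cortical marker, was lower in hippocampus in WT (-1.41, SE 0.13, adjusted p = 0.00604, edgeR). In 5 × FAD it was at -0.84 (SE 0.35, adjusted p = 0.384, edgeR). Of 7 fitted cortical markers, 2 were called in WT and 0 in 5 × FAD, and of 10 listed hippocampal markers only Zbtb20 could be fitted. Kl, the 1 fitted gene of 7 listed for choroid plexus and ependyma, was also higher in hippocampus in WT (2.78, SE 0.32, adjusted p = 0.00872, edgeR). In 5 × FAD it was at 2.60 (SE 0.90, adjusted p = 0.306, edgeR). Its part in the other region differences was not tested. Transcripts of Y-linked genes were counted in 8 of 12 libraries. These were all 6 WT libraries and 5 × FAD library 3 of each region, whereas the series states 2 females and 1 male per genotype. The WT libraries thus hold no sign of the stated females. Sex and genotype cannot be told apart in these libraries except through 5 × FAD library 3. The genotype differences on which the results turn are also given with that library as the only one of its group. That library also stood apart from the other 5 × FAD libraries in Thy1, Trem2 and other genes, as given below.

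The non-coding rows join coding exons to bases outside them, most often an intron that stays in the transcript, and these bases ran from 55 in Adam17-205 to 2217 of 3456 in Adam17-208. The sequences below, from GENCODE transcripts on the GRCm38 build, show the edge of such a stretch for the rows on which the results turn. Capitals mark bases outside every coding exon of the gene, and lower case marks bases of a coding exon.

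Psenen-205, chr7:30562641-30562680 joined to chr7:30562409-30562428, minus strand: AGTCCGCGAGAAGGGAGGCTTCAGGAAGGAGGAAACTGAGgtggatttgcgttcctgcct
Psenen-207, chr7:30562409-30562488, minus strand: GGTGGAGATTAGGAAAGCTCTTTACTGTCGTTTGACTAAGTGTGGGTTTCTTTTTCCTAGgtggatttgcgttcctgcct
Adam10-204, chr9:70776313-70776392, plus strand: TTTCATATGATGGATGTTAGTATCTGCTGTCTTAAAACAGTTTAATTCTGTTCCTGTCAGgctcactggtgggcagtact
Bace1-204, chr9:45852828-45852907, plus strand: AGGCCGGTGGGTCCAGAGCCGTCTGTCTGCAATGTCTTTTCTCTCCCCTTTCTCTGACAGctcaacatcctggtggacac
Psen2-208, chr1:180229906-180229985, minus strand: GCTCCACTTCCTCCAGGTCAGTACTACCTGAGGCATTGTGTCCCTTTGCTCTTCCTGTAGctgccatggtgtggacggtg
Psen2-212, chr1:180229326-180229405, minus strand: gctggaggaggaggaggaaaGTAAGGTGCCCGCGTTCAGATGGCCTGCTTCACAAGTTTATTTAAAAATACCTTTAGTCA

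In Psenen-205 a separate first exon is spliced across a gap of 212 bases to the coding exon, whereas in Psenen-207 the intron runs unspliced into the same coding exon, so the last 20 bases of the 2 sequences are identical. The Adam10-204, Bace1-204 and Psen2-208 sequences read from the end of an intron, which closes on AG, into a coding exon. The Psen2-212 sequence reads the other way, from a coding exon across an unused splice donor that opens on GT. Of the 18 rows, 13 had more bases inside coding exons than outside them and 0 lay wholly in them. Reads from the messenger RNA can therefore fall on these rows, and how the authors' counting divided them is not given in the sources used here.

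**Figure D1:**
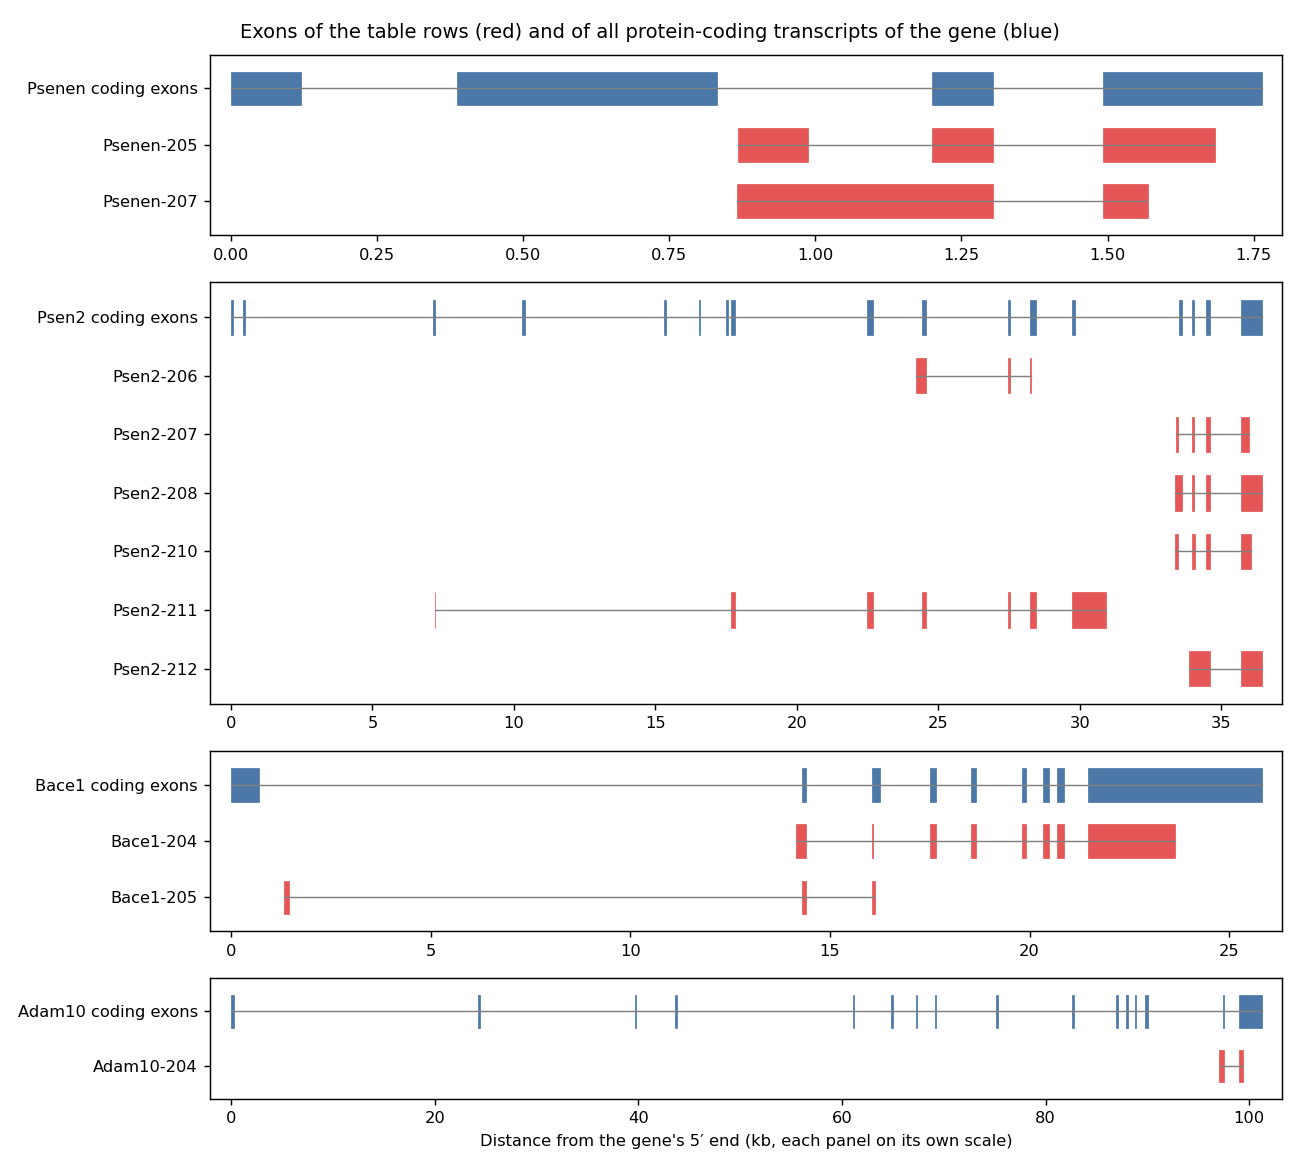
Exons of the table rows (red) below the merged exons of all protein-coding transcripts (blue) of Psenen, Psen2, Bace1 and Adam10, by distance from the gene's 5′ end in kilobases, each panel on its own scale. Bace1-204 has 165 bases outside coding exons and 2981 in them, and the first exon of Psenen-205 lies between coding exons.

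Summed over the rows of a gene and scaled to library size by the trimmed mean of M-values (scaled CPM), Aph1a and Psen2 had the largest values and Adam10 the smallest. Sums over rows of unequal length do not compare genes, so each row was also divided by its length before the rows were summed. On that scale (scaled CPM per kilobase, mean ± SD over 12 libraries) Psen2 was at 31.8 ± 5.90, Psenen at 28.3 ± 12.1 and Ncstn at 25.9 ± 4.50. Aph1a was at 16.8 ± 2.18, Bace1 at 13.4 ± 4.71, Adam17 at 10.6 ± 1.76 and Adam10 at 9.67 ± 2.27. The gap between Ncstn and Aph1a was wider than the SD of either gene. The other neighbours in this order lay closer together than the SD of at least 1 of the pair. This is the order of the means over all libraries and not that of each group, since in 5 × FAD hippocampus Psenen was at 12.7 ± 7.35, below Aph1a at 16.3 ± 3.20 and Bace1 at 15.8 ± 8.71. Among single rows Psenen-205 had the highest mean per kilobase over all libraries (25.2), with group means of 35.0 in WT hippocampus, 28.4 in WT cortex and 27.4 in 5 × FAD cortex. In 5 × FAD hippocampus its mean was 10.2, below Aph1a-204 at 16.3 and Ncstn-203 at 12.9.

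**Figure D2:**
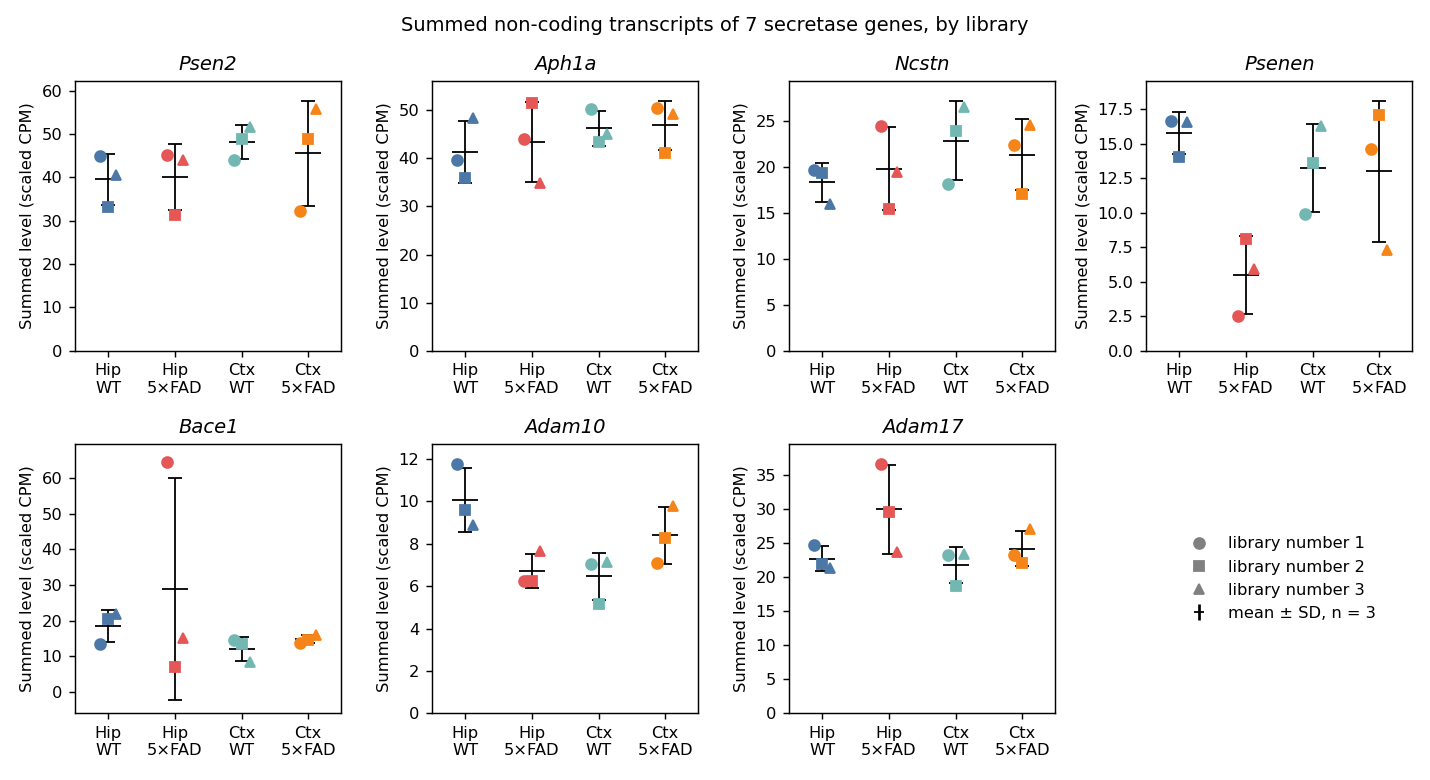
Scaled CPM of the summed non-coding rows of each secretase gene in the 4 groups, with 1 point per library, the mean as a line and the SD as a bar. Psenen in 5 × FAD hippocampus sits at 2.50 to 8.08, below the 14.1 to 16.7 of WT hippocampus, and Bace1 has 1 5 × FAD hippocampal library at 64.4.

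The first comparison asks whether these transcripts differ between 5 × FAD and WT mice. In the hippocampus, Psenen was 2.80-fold lower in 5 × FAD (95% interval 1.45 to 5.42) before correction over all genes, Adam10 was 1.47-fold lower with an interval that reached past no difference, and Bace1 was set by a single library. No secretase gene passed the adjusted threshold. edgeR's quasi-likelihood test called 0 of 7 gene sums at an adjusted p under 0.05, where 0.0529% of all 11343 gene sums were called, and DESeq2 also called 0. At an unadjusted p under 0.05 each tool found 1 gene, Psenen, and 8.69% of all gene sums were at that level in edgeR. The median log2 difference was 0.10 over the 7 genes and 0.03 over all genes. In these bulk samples fewer cells of a type and less RNA per cell cannot be told apart.

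Psenen encodes Pen-2, the small subunit that completes the γ-secretase complex and triggers the self-cleavage of presenilin. Its summed rows held 78, 66 and 73 counts in the 3 WT hippocampal libraries, and 10, 35 and 24 in the 5 × FAD ones. In the cortex the sums were 42, 63 and 57 in WT, and 66, 64 and 32 in 5 × FAD. The hippocampal groups did not overlap, while the cortical groups did.

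On the log2 scale the Psenen difference in the hippocampus was -1.49 (SE 0.41, 95% interval -2.44 to -0.53, adjusted p = 0.507, edgeR). Against the WT mean the 5 × FAD libraries stood at 0.158, 0.512 and 0.376, so each was lower. With 5 × FAD library 3 as the only one of its group, the difference was -1.39. Without 5 × FAD library 1 it was -1.14. In the cortex the difference was -0.03 (SE 0.36, 95% interval -0.88 to 0.82, adjusted p = 0.991, edgeR).

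Row by row, nearly all of this lay in Psenen-205. It held 76, 56 and 65 counts in WT hippocampus, and 0, 32 and 21 in 5 × FAD hippocampus. The cortical libraries held 35, 58 and 50 counts for WT, and 60, 55 and 24 for 5 × FAD. The library without a count, 5 × FAD hippocampus 1, allows up to 3 counts, or 0.757 CPM, whereas the other 11 libraries held 21 to 76.

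Psenen-207, the retained-intron row, held 2 to 10 counts per library and was too low to be fitted. In 5 × FAD hippocampus 1 it held 10 counts while Psenen-205 held 0. The 2 rows share 300 bases, with 114 found only in Psenen-205 and 214 only in Psenen-207. With its count of 0 in 1 library, Psenen-205 taken alone differed by -1.76 in the hippocampus (SE 0.94, 95% interval -4.01 to 0.49, adjusted p = 0.694, edgeR). Without 5 × FAD library 1 the value was -1.17, and without 5 × FAD library 2 it was -2.45. At the row level edgeR called 0 of 13 fitted rows, with 0 at an unadjusted p under 0.05, and so did DESeq2. Of all 21894 rows fitted, 0.0183% were called and 7.58% were at an unadjusted p under 0.05.

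Adam10, the main α-secretase of neurons, had 1 row. Adam10-204 held 55, 45 and 39 counts in WT hippocampus and 25, 27 and 31 in 5 × FAD hippocampus, and these groups did not overlap. Cortical WT libraries held 30, 24 and 25 and the 5 × FAD ones 32, 31 and 43, the opposite order in counts. Scaled to library size, the cortical ranges overlapped (5.17 to 7.14 in WT and 7.10 to 9.78 in 5 × FAD).

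The log2 difference of the Adam10 sum was -0.56 in the hippocampus (SE 0.27, 95% interval -1.18 to 0.06) and 0.38 in the cortex (SE 0.27, 95% interval -0.27 to 1.02). The adjusted p was 0.599 and 0.824 (edgeR). Against 5 × FAD library 3 alone the 2 values were -0.37 and 0.60. Adam10 and Psenen were the 2 of 7 secretase genes whose hippocampal groups did not overlap, both lower in 5 × FAD, and 9.18% of all gene sums did so in that direction. In the cortex 0 of 7 were without overlap, against 13.1% of all gene sums in either direction.

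Bace1, the β-secretase, gave the largest positive difference in the hippocampus, and 1 library set it. Bace1-204 held 55, 86 and 79 counts in WT hippocampus and 251, 20 and 51 in 5 × FAD. Cortical counts overlapped, at 55, 50 and 21 for WT against 51, 45 and 58 for 5 × FAD. The 251 counts stand 3.36-fold above the next highest library in CPM and 5.10-fold above the median of the other 11. This is the same 5 × FAD hippocampal library in which Psenen-205 held 0.

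The smaller row, Bace1-205, held 7 to 17 counts over the 12 libraries and 7 in the library where Bace1-204 held 251. The log2 difference of the Bace1 sum in the hippocampus was 0.66 (SE 0.73, 95% interval -1.06 to 2.38, adjusted p = 0.799, edgeR). Without 5 × FAD library 1 it was -0.73, without 5 × FAD library 2 it was 1.12, and with 5 × FAD library 3 alone it was -0.28. Neither sign is therefore held by the hippocampal libraries. In the cortex the difference was 0.27 (SE 0.26, 95% interval -0.35 to 0.90).

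Bace1-204 shares 951 bases (30.2% of the row) with Gm49338, a gene on the opposite strand that had no row and so could not be analysed. It shares a further 135 bases with Gm16536, also on the opposite strand, which was examined after its values were seen. Gm16536 held 302, 280 and 281 counts in WT hippocampus and 176, 191 and 200 in 5 × FAD hippocampus. Its cortical counts were 305, 327 and 198 for WT, and 293, 278 and 362 for 5 × FAD. Its hippocampal groups did not overlap, which 9.18% of all gene sums also showed in that direction. The log2 difference was -0.43 (SE 0.16, adjusted p = 0.540, edgeR). The libraries were stranded, but the strand setting of the counting is not given in the sources used here.

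Psen2 encodes presenilin 2, a catalytic subunit of γ-secretase found largely in endosomes and lysosomes. Its 6 rows together held 210, 156 and 178 counts in WT hippocampus and 181, 136 and 178 in 5 × FAD. In the cortex they held 187, 227 and 181 in WT and 145, 183 and 245 in 5 × FAD. The log2 difference was 0.05 in the hippocampus (SE 0.22, 95% interval -0.48 to 0.57) and -0.08 in the cortex (SE 0.23, 95% interval -0.62 to 0.45), so the groups overlapped in both regions.

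Within the gene the rows were less even than the sum. Psen2-208 held 25, 14 and 36 counts in WT hippocampus, 19, 12 and 69 in 5 × FAD hippocampus, 34, 94 and 37 in WT cortex and 18, 1 and 75 in 5 × FAD cortex. Psen2-212 held 67, 37 and 64, then 85, 67 and 29, then 45, 35 and 28, then 33, 86 and 49 in the same order of groups. In 5 × FAD cortex 2, where Psen2-208 was lowest with 1 count, Psen2-212 was at its highest with 86.

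These 2 rows lie at the 3′ end of the gene with Psen2-210 and Psen2-207, and most of their bases are shared between rows. Psen2-208 shares 88.6% of its bases with other secretase rows, Psen2-212 65.5%, and Psen2-210 and Psen2-207 each 100%. Over the 12 libraries the coefficient of variation of CPM was 77.0% for Psen2-208 and 44.3% for Psen2-212, and 27.1% for the sum of the 4 rows. Psen2-207 held 13 counts in WT hippocampus 3 and 14 in WT cortex 3, and 0 in the other 10 libraries. Psen2-210 held 0 to 7 counts, Psen2-206 2 to 17, and Psen2-211, the long retained-intron row upstream, 49 to 112.

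**Figure D3:**
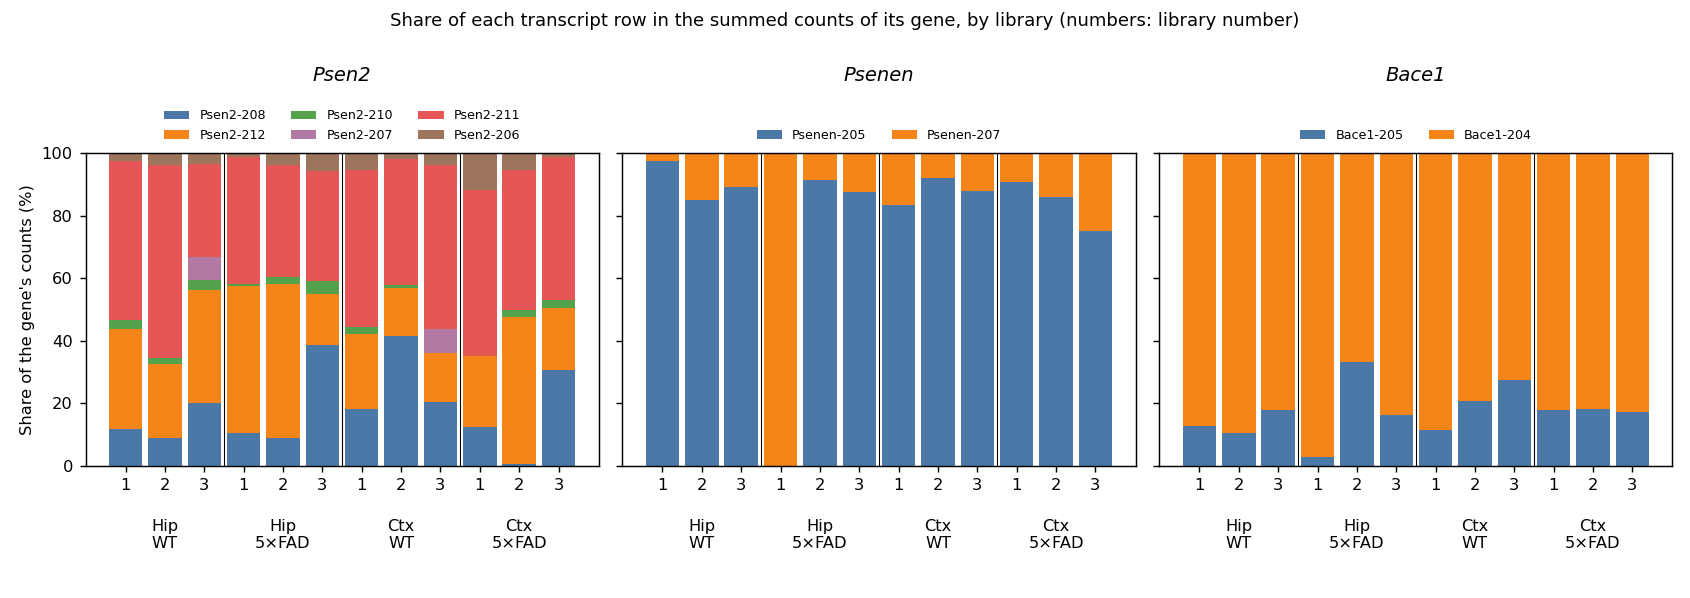
Share of the summed counts of Psen2, Psenen and Bace1, in percent, taken by each of its rows (colours) in each of the 12 libraries. Psenen-205 takes 0% of Psenen in 5 × FAD hippocampus 1 against a median of 87.6% over all libraries, and Psen2-208 runs from 0.546% to 41.4% of Psen2.

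Aph1a encodes the main Aph1 subunit of brain, a scaffold of the γ-secretase complex. Aph1a-204 held 185, 169 and 213 counts in WT hippocampus and 176, 223 and 141 in 5 × FAD hippocampus, and 214, 201 and 158 against 227, 154 and 216 in the cortex. It was the steadiest of the 7 genes, with a coefficient of variation of 12.8% over 12 libraries. The log2 difference was 0.10 in the hippocampus (95% interval -0.42 to 0.62) and 0.02 in the cortex (95% interval -0.36 to 0.39), so a 2-fold change lay outside both intervals. On the opposite strand, Car14 shares 65 of its bases.

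Nicastrin, the product of Ncstn, is the large glycoprotein that admits substrates to the complex. Its 3 rows summed to 92, 91 and 70 counts in WT hippocampus and 98, 67 and 79 in 5 × FAD, and to 77, 111 and 93 against 101, 64 and 108 in the cortex. The log2 difference was 0.14 in the hippocampus (95% interval -0.44 to 0.72) and -0.10 in the cortex (95% interval -0.65 to 0.45). Ncstn-203 ran from 18 to 63 counts, Ncstn-202 from 16 to 34 and Ncstn-205 from 14 to 40, with overlap between the genotypes in each region. Ncstn-205 shares 195 bases with exons of Copa on the opposite strand.

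Adam17, the sheddase of tumour necrosis factor and another α-secretase, had 3 rows, of which Adam17-205 was at 0 in all 12 libraries. Adam17-208 held 105, 93 and 82 counts in WT hippocampus and 140, 120 and 85 in 5 × FAD hippocampus, where 5 × FAD library 3 lay within the WT range. Its cortical counts were 88, 85 and 77 for WT, and 90, 74 and 111 for 5 × FAD. The summed difference was 0.43 in the hippocampus (SE 0.23, 95% interval -0.11 to 0.97, adjusted p = 0.620, edgeR), but 0.08 against 5 × FAD library 3 alone. In the cortex it was 0.15 (SE 0.19). Adam17-204 was low, at 2 to 15 counts.

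In the cortex edgeR called 0 of 7 secretase gene sums between genotypes, with 0 at an unadjusted p under 0.05, and DESeq2 gave the same counts. Of all 11404 gene sums 0.0175% were called and 6.67% were at the unadjusted level. The log2 differences ran from -0.10 (Ncstn) to 0.38 (Adam10), and the 95% interval stayed within a 2-fold change either way for 6 genes, all but Adam10. In the hippocampus it did so for Adam17, Aph1a, Ncstn and Psen2. At the row level edgeR and DESeq2 called 0 of 14 in the cortex, with 0 at the unadjusted level, against 0.0545% of all rows called and 5.34% at the unadjusted level.

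**Figure D4:**
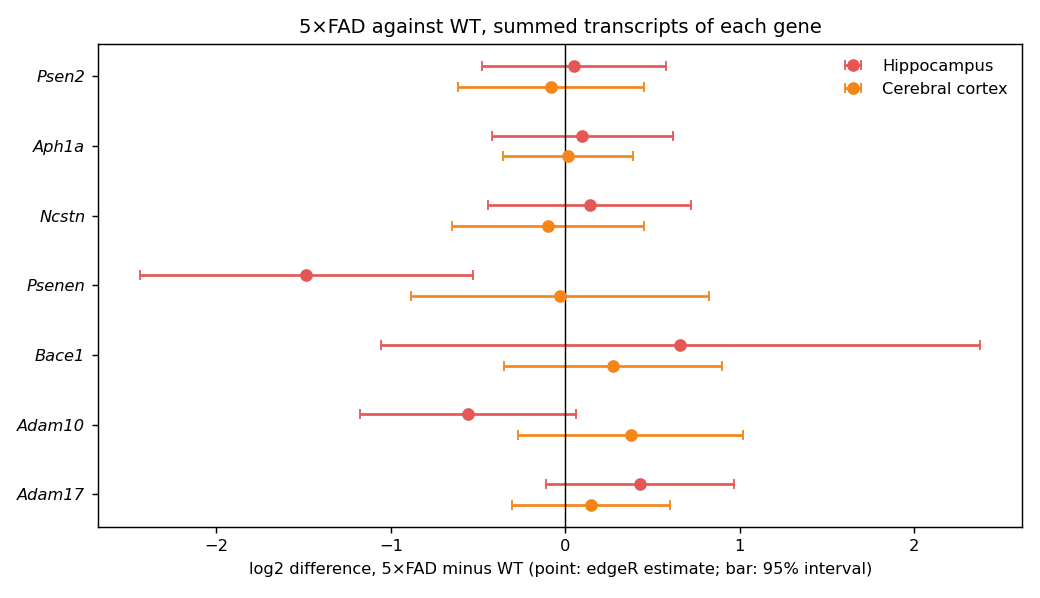
Log2 difference of the summed rows, 5 × FAD minus WT, for each secretase gene in the hippocampus and the cortex, with 95% intervals from edgeR. In the hippocampus the Psenen interval runs from -2.44 to -0.53 and the Bace1 interval from -1.06 to 2.38, and the cortical Psenen interval from -0.88 to 0.82 spans 0.

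Whether the genotype difference itself differed between regions was tested as an interaction over all 12 libraries. The fit had no term for the mouse, although both regions came from each mouse, so its SE and p take the libraries as independent. The same holds for the comparisons of regions below. It was -1.48 for Psenen (SE 0.57) and -0.96 for Adam10 (SE 0.34), and the adjusted p was 0.666 and 0.657 (edgeR). edgeR thus called 0 of 7 genes, as did DESeq2, which gave no adjusted p for 1 of them, and both had these 2 genes at an unadjusted p under 0.05. Of all 12104 gene sums, 0% were called and 7.01% were at the unadjusted level. For Psenen the value depends on the 5 × FAD libraries used, since it was -0.53 with 5 × FAD library 3 alone, in which the cortical sum was also below WT (log2 difference -0.86). For Adam10 it was -0.97 with that library alone. At the row level 0 of 14 were called by either tool, with no adjusted p from DESeq2 for 3, 1 (Adam10-204) was at the unadjusted level, against 0.00812% of all rows called and 6.89% at that level.

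Between regions, Adam10 was the secretase gene with the largest difference in WT mice, at 0.62 higher in hippocampus on the log2 scale (SE 0.25, adjusted p = 0.266, edgeR). The hippocampal and cortical WT groups did not overlap for Adam10, which 13.1% of all gene sums also showed in that direction. The lowest value was -0.34 for Ncstn (SE 0.21), and Bace1 was at 0.59 (SE 0.29). edgeR called 0 of 7 genes, with Adam10 at an unadjusted p under 0.05, and DESeq2 called 0 with 0 at that level. Of all 11429 gene sums 3.49% were called between regions in WT and 17.3% were at the unadjusted level.

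Of the 13 WT rows fitted between regions, 0 were called by edgeR or DESeq2, against 0.986% of all rows called and 12.8% at an unadjusted p under 0.05. Psen2-208 was at -1.25 (SE 0.50, adjusted p = 0.368, edgeR) and Adam10-204 at 0.63 (SE 0.24, adjusted p = 0.355, edgeR). DESeq2 had Psen2-208 alone at that unadjusted level. The highest cortical value of Psen2-208 was the 94 counts of WT cortex 2, and without that library the difference was -0.76 and no longer at the unadjusted level. It also missed that level without WT hippocampus 1, WT hippocampus 2 or WT cortex 3, with the replicate number as a block (-1.21), and with all 12 libraries in 1 fit (-1.23).

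In 5 × FAD mice the Psenen difference, hippocampus minus cortex, was -1.23 on the log2 scale (SE 0.50, adjusted p = 0.377, edgeR). Bace1 had the highest value, 0.95 (SE 0.72), which includes the library with 251 counts. edgeR and DESeq2 each called 0 of 7 genes and had Psenen at an unadjusted p under 0.05, against 0.193% of all gene sums called and 12.6% at the unadjusted level. Of 14 rows 0 were called, with 0 at the unadjusted level in both tools, against 0.0182% of all rows called and 9.38% at the unadjusted level. These region comparisons use the same libraries as the genotype comparisons and are not independent of them.

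Thy1, whose promoter drives the transgenes, held 140, 144 and 139 counts in WT hippocampus and 423, 621 and 158 in 5 × FAD hippocampus. In the cortex it held 169, 202 and 161 in WT and 562, 467 and 157 in 5 × FAD. The 5 × FAD libraries 1 and 2 were high in both regions, whereas 5 × FAD library 3 was near WT. The log2 difference was 1.67 in the hippocampus (SE 0.43, adjusted p = 0.495, edgeR) and 1.14 in the cortex (SE 0.44, adjusted p = 0.740, edgeR). The 5 × FAD library that holds Y-linked transcripts is thus also the one with the lowest Thy1 sum in each region, and Trem2 followed the same order (cortex 232, 183 and 19.8 scaled CPM in 5 × FAD against 36.9 to 53.5 in WT). A value with 5 × FAD library 3 alone compares only libraries that hold Y-linked transcripts. It rests on 1 library per region, which stood apart from the other 5 × FAD libraries in Thy1 and Trem2, so it need not stand for the genotype. In the hippocampus that library also stood apart in Slc1a3, given below, and in Mef2c. Mef2c was at 212, 176 and 98.8 scaled CPM in 5 × FAD hippocampus 1, 2 and 3, against 109 to 113 in WT. Where the value with 5 × FAD library 3 alone differs from the group's value, sex and these measures cannot be told apart.

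Summed markers of other cell types were compared between the hippocampal groups, as ranges of scaled CPM over 3 libraries. The 7 microglial genes with a row, of 15 listed, stood at 36.2 to 45.0 in WT and 53.4 to 213 in 5 × FAD, with 0 of 3 fitted called. Most of the microglial sum was Trem2, a receptor of microglia, at 178, 187 and 40.5 in 5 × FAD libraries 1, 2 and 3 against 19.4 to 32.3 in WT. Oligodendrocyte genes (7 of 13 with a row) stood at 421 to 512 in WT and 561 to 659 in 5 × FAD, and vascular genes (5 of 9) at 42.6 to 66.2 and 73.2 to 95.6. Cnp, an enzyme of myelinating cells, made up a large part of the oligodendrocyte sums, at 163 to 250.5 in WT and 281 to 416 in 5 × FAD, while the median log2 difference of the list was -0.08. Vtn made up a large part of the vascular sums, at 10.3 to 38.9 in WT and 43.7 to 62.2 in 5 × FAD. The median log2 difference of the vascular list was 0.27.

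Astrocyte genes (8 of 11) stood at 1496 to 1578 in WT and 551 to 1236 in 5 × FAD. Most of this was Slc1a3, a glutamate transporter, at 1301 to 1436 in WT and 510, 418 and 1051 in 5 × FAD libraries 1, 2 and 3. The median log2 difference of the astrocyte list was 0.02. Neuronal genes (8 of 11) overlapped, at 1722 to 4583 and 1964 to 7329, and the median log2 difference of the list was 0.07. Single genes stood out in single libraries. Slc17a7 was at 3717 in 5 × FAD hippocampus 1, 1083 and 439 in 5 × FAD libraries 2 and 3, and 349 to 835 in WT. That library 1 is also the one with 251 counts of Bace1-204 and 0 of Psenen-205. Camk2a was at 1123 in WT hippocampus 1, 168 and 159 in the other WT libraries, and 120 to 162 in 5 × FAD. The defining microglial genes Cx3cr1, P2ry12, Tmem119 and Csf1r had no row. Of the fitted genes of these 5 lists edgeR called 0 between the hippocampal groups, and their part in the Psenen, Adam10 and Bace1 values was not tested.

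The wider pathway was read from 8 lists of 96 genes: modulators of γ-secretase, related intramembrane proteases, ADAM partners, other ADAM proteases, BACE1 traffic, secretase substrates, adaptors of the amyloid precursor and amyloid β degrading enzymes. Of these genes 72 had a row. Between genotypes edgeR called 0 of 67 in the hippocampus and 0 of 66 in the cortex. At an unadjusted p under 0.05, 4 were higher and 0 lower in the hippocampus, and 1 was higher and 5 lower in the cortex. These counts stand beside 8.69% and 6.67% of all gene sums at that level. The median log2 difference was 0.04 in the hippocampus and -0.04 in the cortex, beside 0.03 and -0.00 over all genes.

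Between regions in WT, 2 of 65 list genes were called, both higher in hippocampus, and 0 lower, beside 3.49% of all gene sums called. At an unadjusted p under 0.05, 7 list genes were higher and 7 lower, beside 17.3% of all gene sums, so neither count sets the lists apart. Chl1, a neuronal adhesion molecule that BACE1 sheds, stood at 47.7, 55.8 and 42.1 scaled CPM in WT hippocampus and 24.9, 23.3 and 25.7 in WT cortex. Its log2 difference was 0.96 (SE 0.16, adjusted p = 0.0260, edgeR). Dab1, an adaptor that binds the tail of the amyloid precursor protein and of reelin receptors, stood at 46.2, 51.3 and 48.7 in WT hippocampus and 29.2, 19.0 and 22.3 in WT cortex. Its log2 difference was 1.03 (SE 0.19, adjusted p = 0.0354, edgeR). In 5 × FAD mice the 2 values were 0.88 (SE 0.34, adjusted p = 0.363, edgeR) and 0.71 (SE 0.29, adjusted p = 0.376, edgeR), and 0 of 66 list genes were called there. In the interaction 0 of 68 were called.

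Among 10221 other genes compared over the 12 libraries, the one most like a secretase gene by Pearson's r of log2 scaled CPM was Gm26534 for Psenen (r = 0.950). It was Cfap36 for Adam17 (r = 0.884), Pde4dip for Bace1 (r = 0.881) and Cap2 for Adam10 (r = 0.881). For Aph1a it was Heatr1 (r = 0.878) and for Ncstn Bnc2 (r = 0.873). Each is the highest of many values and shares library size and mice with its partner, so it serves as a description.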

How the data were processed

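Ribosomal RNA-depleted, stranded, paired-end libraries of hippocampus and cerebral cortex were compared, with 1 row per transcript in the table. The deposited values are raw whole-number counts, which the authors had not normalized. Per the labels, Trimmomatic 0.36 and edgeR were used by the submitters. The aligner, counter, build, annotation and strand setting are not given in the sources used here, nor is it stated whether estimated values were rounded. The paper's RNase R step is described for circular RNA and is not mentioned in the labels of these libraries. All 12 columns were used, and 0 were left out.

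Names came from GENCODE M21 (GRCm38), which matched 45372 of 45597 Ensembl identifiers, while 2436 assembled rows had no such name. Rows were fitted singly and summed per gene (22103 sums) in R 4.3.3 with edgeR 4.0.16: filterByExpr, TMM scaling, glmQLFit and glmQLFTest on the groups compared, or on all 12 libraries for the interaction. Calls used a Benjamini-Hochberg adjusted p under 0.05 over all features fitted. The SE was the log2 difference divided by the root of F, and 95% intervals used the t quantile. Of the 18 rows, 14 could be fitted in at least 1 comparison. Fits were also run on simulated counts with log2 changes of 2 and the same spread for all features. False calls made up 3.50% to 9.19% of calls there. That spread was not fitted to these data, so the run does not show how often a change in a secretase row would be found. Figures used matplotlib 3.10.9.

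Replicates differed by more than sampling noise (chi-square per degree of freedom 20.8 to 33.0 over 12 pairs). The replicates of a group are separate mice. With 3 libraries per group a single secretase value carries the animal spread of 3 mice, and 3 counts in a library correspond to 0.598 to 0.853 CPM. The members, lists and tests were chosen with earlier results of these data known. All members were named by rule, a list gene only when called (at most 3 per list), and 1 most similar gene per member, of which the one for Psen2 is not reported here. Alternatives were DESeq2 1.42.0, other scaling and filters, all libraries in 1 fit, a replicate block, and libraries left out.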

Additional observations from a re-analysis of the deposited data

How the results depend on the processing

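No secretase gene or row was called in any of the 146 alternative fits of the 10 comparisons, and the smallest adjusted p was 0.115, for Psenen in the hippocampus with DESeq2. Of 300 alternative values of 21 results, 23 changed sign, all in uncalled differences, and the cause was not tested. With libraries left out in turn, the genotype difference (log2) ran from -0.073 to 0.20 for Psen2, -0.045 to 0.23 for Aph1a, -0.044 to 0.29 for Ncstn, -0.73 to 1.12 for Bace1 and -0.89 to 1.23 for Bace1-204 in the hippocampus. In the cortex it ran from -0.26 to 0.11 for Psen2, -0.046 to 0.11 for Aph1a, -0.24 to 0.041 for Ncstn and -0.27 to 0.26 for Psenen. Psenen in the hippocampus kept its sign, at -1.87 to -1.14. With 5 × FAD library 3 alone, which is assumed to vary like the other libraries, the values that changed sign were 0.21 for Psen2 and 0.10 for Ncstn in the cortex, and -0.23 for Aph1a, -0.28 for Bace1 and -0.35 for Bace1-204 in the hippocampus. This could not be fitted for the region comparison within 5 × FAD, which would set 1 library against 1.

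Deviations from the group mean were correlated between same-numbered libraries of the 2 regions, over 3 pairs per genotype. The r was -0.07 to 0.03 in WT, and 0.05 to 0.27 in 5 × FAD with 1 pair above 0.1. In each genotype r was highest for the shared number in 1 of 3 pairs. Same-numbered WT and 5 × FAD libraries, which are different mice, had r of -0.10 to 0.03. The highest r was that of 5 × FAD library 3 between regions, which held Y-linked transcripts in both. Psen2-207 was counted only in WT library 3 of each region (13 and 14 counts). Camk2a was highest in WT library 1 of each region (1123 and 704 scaled CPM). Bace1-204 and Psenen-205 set 5 × FAD library 1 apart in the hippocampus only. Whether a number marks the same mouse in both regions was not settled, and the numbers were not taken as pairs. With the replicate number as a block 0 secretase genes were called. In that fit Bace1 in the hippocampus was 0.064, Bace1-204 -0.055, Psenen -1.58 and Adam10 -0.55. Psenen-205 had no value under a filter of at least 10 counts in every library.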
